A study of Mus musculus with 16 samples.

Results

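The proteasome genes examined here are the 50 protein-coding genes, of 45724 genes in the deposited table of mouse cultured neurons, whose symbol begins with Psma to Psmg followed by a digit. By the role of their products they are 8 alpha and 7 beta subunits of the core, 4 immune or thymus beta subunits, 6 ATPases and 3 other subunits of the base, 8 lid subunits, 6 activators or inhibitors, 7 assembly factors and 1 gene that only shares the name pattern (Psmc3ip, a recombination factor). The cells were primary neurons from the brain of C57BL/6 mice on postnatal day 0. All 16 libraries came from that strain and stage. The cells received DPBS, a buffered saline, as control, or 1 of 3 peptides: NP24, Tβ10 or Tβ4. These peptides are attributed to the subcommissural organ, a secretory gland of the brain's ventricles. Tβ10 and Tβ4 are β-thymosins, which bind actin monomers. Each group had 4 libraries of total RNA. The labels give no dose and no duration, and they do not state that the libraries of a group are separate cultures, so p-values measure only the spread between these libraries, which may be technical.

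The proteasome degrades proteins that carry ubiquitin chains. Its core is a stack of rings in which beta subunits carry the protease sites, and the alpha rings on either end gate the entrance. The regulatory particle caps the core: its base holds a ring of ATPases that unfold substrates, and its lid removes ubiquitin. In cells exposed to interferon the catalytic subunits Psmb5, Psmb6 and Psmb7 are replaced in new particles by Psmb8, Psmb9 and Psmb10, which changes the peptides produced for antigen presentation. Neurons depend on the constitutive form for turnover of synaptic and damaged proteins.

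The libraries held 11642242 to 38254320 reads in genes, and values are normalized counts, of which 1 read was worth 0.536 to 1.71. All 8 neuron markers were present in every library, the lowest value being 2586 normalized counts for Snap25. Mitochondrial rRNA took 9.32 to 14.2% of reads in control libraries; the ranges were 5.98 to 8.12% for NP24, 4.76 to 9.53% for Tβ10 and 8.25 to 24.3% for Tβ4. Tβ10 library 1 and Tβ4 library 2 stood apart in the proteasome genes, as described further on, and the fitted differences of named proteasome genes in these groups are also given without them. Of the 50 genes, 47 passed the filter of 10 normalized counts in 4 libraries in each comparison, and Psma8, Psmb8 and Psmb11 did not. Psma8 and Psmb11, subunits of the testis and thymus forms, and Psmb8 held at most 51, 10 and 19 reads in a library.

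Per exonic length in the controls, the role medians of core, base and lid genes ran from 257 to 435. Single genes of these roles, Psma8 aside, ran more widely, from 121 to 642. The role medians, in normalized counts per kb of exon, were 277.9 for core alpha, 326 for core beta, 360 for the base ATPases, 435 for the other base subunits and 257 for the lid. The highest single genes were Psmb2, a core beta subunit, at 642 ± 60.5 (SD, n = 4) and Psmd14, the deubiquitinase of the lid, at 638 ± 26.6. These top 2 differed by less than their spread. Psma6 (551 ± 43.3), Psmc1 (508 ± 27.3) and Psmd2 (462 ± 31.7), a large scaffold of the base, led their own roles. Within the same roles the lowest were Psmb3 at 133 ± 11.8, Psmc2 at 121 ± 8.53, Psmd3 at 186 ± 30.1 and Psmd1 at 305 ± 17.3.

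Genes outside the constitutive particle were lower per length. The assembly factors had a median of 56.4 normalized counts per kb, with Psmg3 lowest at 47.5 ± 11.9, although Psmg4 reached 419 ± 33.1. Psme4, which encodes the large single-chain activator PA200, led the activators at 358 ± 23.3, and Psme2b was lowest at 68.5 ± 13.9. Psme2b is a near copy of the activator gene Psme2, so reads of either can have been assigned to the other. The immune and thymus subunits had a median of 3.09, led by Psmb10 at 36.7 ± 8.79, and Psmb11 stood at 0.552 ± 0.642. Psma8 stood at 1.11 ± 1.16 among the alpha subunits.

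**Figure D1:**
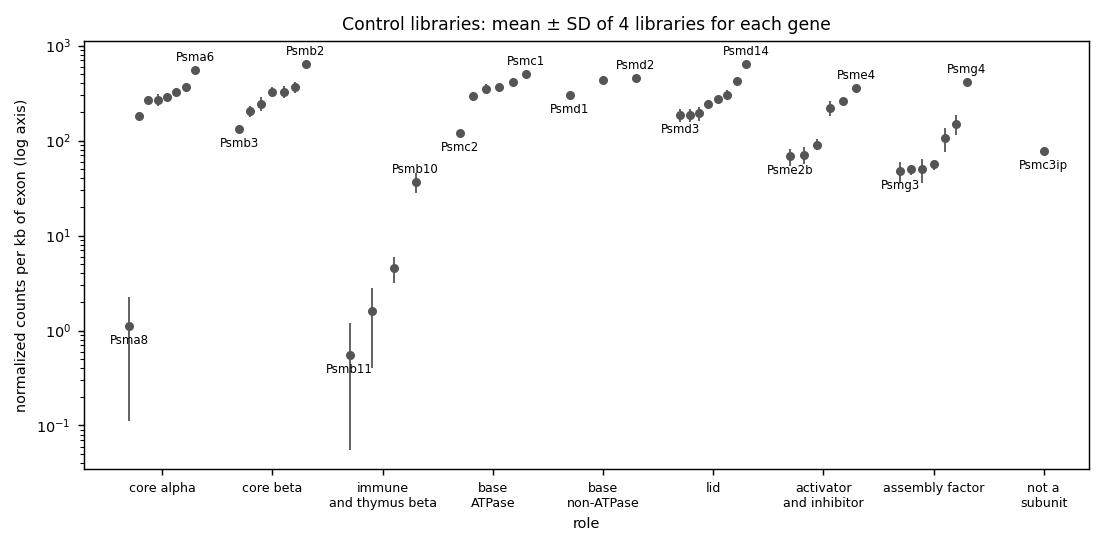
Each point is a proteasome gene in the 4 control libraries, by role on the horizontal axis and by normalized counts per kb of exon on a log vertical axis; bars are the SD of 4 libraries, and the lower bars of Psma8 and Psmb11, which pass below 0, are cut. The immune and thymus subunits and Psma8 lie below the other core, base and lid genes, with Psmb10 highest among them at 36.7 and Psmb2 highest of all at 642.

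Promoter sequence was examined for the motifs known from these genes. The transcription factor encoded by Nfe2l1 raises proteasome genes when the proteasome is inhibited, through antioxidant response elements that the factor of Nfe2l2 also binds, and ETS sites are common near the starts of housekeeping genes. RefSeq promoters of build GRCm38.p6 were given for 42 of the 50 genes, and the 250 bases before the annotated start were searched on both strands. The core of the antioxidant response element, TGACNNNGC, was present in 5 of 42 (11.9%), against 3112 of 27025 promoters in all and 13.8% of those of protein-coding genes tested. The ETS site CCGGAAG was present in 13 of 42 (31.0%), against 7.83% and 13.7%. CCAAT was found in 15 (35.7%, against 37.5% and 39.9%) and the interferon-stimulated response element in 3 (7.14%, against 3.46% and 3.01%), which were Psmb3, Psmd4 and Psmd9 and none of the immune subunits. Matches of different motifs overlapped in 0 cases in these genes. A match is a stretch of letters and was not measured as a binding site here.

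The 5 stretches that hold TGACNNNGC are shown because they are the candidate sites for the factors of Nfe2l1 and Nfe2l2; capitals mark the match, each stretch is written along the gene's strand, and in Psmc6 and Psmd12 the match is on the other strand. Positions are chr14:54618018-54618058 (minus strand) for Psmb5, chr11:70525332-70525356 for Psmb6, chr14:45329581-45329621 for Psmc6, chr11:107479278-107479318 for Psmd12 and chr5:123228143-123228183 for Psmd9, the last 4 on the plus strand.
Psmb5: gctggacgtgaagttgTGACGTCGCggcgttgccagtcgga
Psmb6: ggcggactaaagagagTGACGGAGC
Psmc6: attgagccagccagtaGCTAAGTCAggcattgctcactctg
Psmd12: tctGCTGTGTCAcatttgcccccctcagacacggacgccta
Psmd9: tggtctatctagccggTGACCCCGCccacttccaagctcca
Psmb5 and Psmb6 encode catalytic core subunits, Psmc6 a base ATPase, Psmd12 a lid subunit and Psmd9 an assembly factor.

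For the ETS site, 4 example stretches are shown out of 13 genes, picked after the matches were known from those not lying wholly in annotated exons, with CCGGAAG or its reverse complement CTTCCGG in capitals. Positions are chr12:55398677-55398715 for Psma6, chr16:20651610-20651648 for Psmd2, chr11:80428588-80428614 for Psmd11 and chr11:30771706-30771744 for Psme4, all on the plus strand.
Psma6: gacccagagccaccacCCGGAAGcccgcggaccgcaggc
Psmd2: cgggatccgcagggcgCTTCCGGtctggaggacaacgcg
Psmd11: gaacgcgagggcgggtCTTCCGGgtgt
Psme4: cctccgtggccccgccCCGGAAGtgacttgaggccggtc

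With NP24, 1 of the 47 tested proteasome genes passed the test, Psmd1, which rose. Psmd1 encodes the base subunit Rpn2, a scaffold that contacts the core and the lid. In controls it stood at 2180, 2065, 2246 and 2365 normalized counts, and with NP24 at 2971, 3175, 2765 and 2674. Every NP24 library was above every control, and the means were 2214 ± 126 and 2897 ± 224 (SD, n = 4). The rise was 1.31-fold, a log2 difference of 0.39 ± 0.09 (SE; 95% interval 0.20 to 0.57; limma adjusted p = 0.025). Among all 21774 genes tested, 2.63% passed in this comparison. Psmd1 (ENSMUSG00000026229.17) lies on chromosome 1 of GRCm38, from 86064387 to 86139151, plus strand; 301 of its exonic bases are shared with Gm21972 on the same strand (log2 difference 0.31, adjusted p = 0.266) and 252 with Htr2b on the opposite strand (0.62, adjusted p = 0.135).

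The call for Psmd1 held with edgeR (adjusted p = 0.0297) and DESeq2 (adjusted p = 0.0018) on recovered reads. It was lost without control library 1 or 2 (adjusted p = 0.0943 and 0.0919), without NP24 library 1 or 3 (adjusted p = 0.064 and 0.0693), with the spread of all 16 libraries (adjusted p = 0.152) and with the mitochondrial rRNA share as a covariate (0.30, adjusted p = 0.991). Without those libraries the log2 difference was 0.38, 0.35, 0.37 and 0.41 in that order, and with the spread of all 16 it was 0.39. In the authors' deposited table Psmd1 had an adjusted p of 0.0834. Mitochondrial rRNA shares of the groups did not overlap, so a fit with that covariate cannot tell it apart from the peptide. The summed level of the 8 neuron markers ran from 87669 to 93790 with NP24 against 74741 to 83974 in controls, with positive values for 8 of 8 and 0 called. The part of these shares and markers in the Psmd1 result was not tested. In bulk RNA, a change in the share of a cell type and a change in RNA per cell cannot be told apart.

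In the other groups Psmd1 overlapped with the controls. Its values were 2193, 2776, 2868 and 2461 with Tβ10 and 2421, 2137, 2975 and 2361 with Tβ4. The log2 differences from control were 0.21 ± 0.11 (limma adjusted p = 0.5) and 0.15 ± 0.13 (adjusted p = 0.902), and 0.29 and 0.22 without Tβ10 library 1 and Tβ4 library 2. All 3 comparisons use the same 4 control libraries.

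With NP24, of 47 genes 33 were positive and 14 negative, with a median log2 difference of 0.05 against -0.004 for all genes tested. An unadjusted p under 0.05 was reached by 3 genes (6.38%), where 3710 of all 21774 genes did so. The 95% interval lay within 1 log2 unit either way for 44 of 47, the exceptions being Psmb9, Psme2 and Psmd10. Besides Psmd1, only Psmd5 had groups that did not overlap in the higher direction, where 5.07% of all genes did so. Psmd5, an assembly factor of the base, stood at 428, 423, 444 and 336 in controls and 616, 513, 514 and 452 with NP24. All NP24 libraries exceeded the controls, although the lowest NP24 value, 452, was close to the highest control, 444. Its log2 difference was 0.36 ± 0.14 (limma adjusted p = 0.185).

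By role with NP24, medians ran from -0.01 for the activators and inhibitor to 0.11 for the lid, leaving aside the immune subunits and Psmc3ip (-0.05). The core alpha genes had a median of 0.09 (6 of 7 positive), with Psma4 at 0.29 ± 0.14 (adjusted p = 0.309). Core beta genes had a median of 0.05 (6 of 7 positive), with Psmb1 at 0.21 and Psmb2 at 0.09. The base ATPases had a median of 0.06, with Psmc2 at 0.12 and Psmc6 at 0.11. In the lid, Psmd11 gave 0.25 ± 0.11 (adjusted p = 0.242) and Psmd14 0.14 ± 0.11. Psmd10, the assembly factor also called gankyrin, gave 0.47 ± 0.30 (adjusted p = 0.451), from values of 54.3, 61.8, 78.2 and 102 in controls and 148, 109, 73.0 and 84.5 with NP24. These ranges overlapped. Of these 47 genes Psmd1 was the single call by limma, and the differences named here other than Psmd1 are values that missed the threshold.

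**Figure D2:**
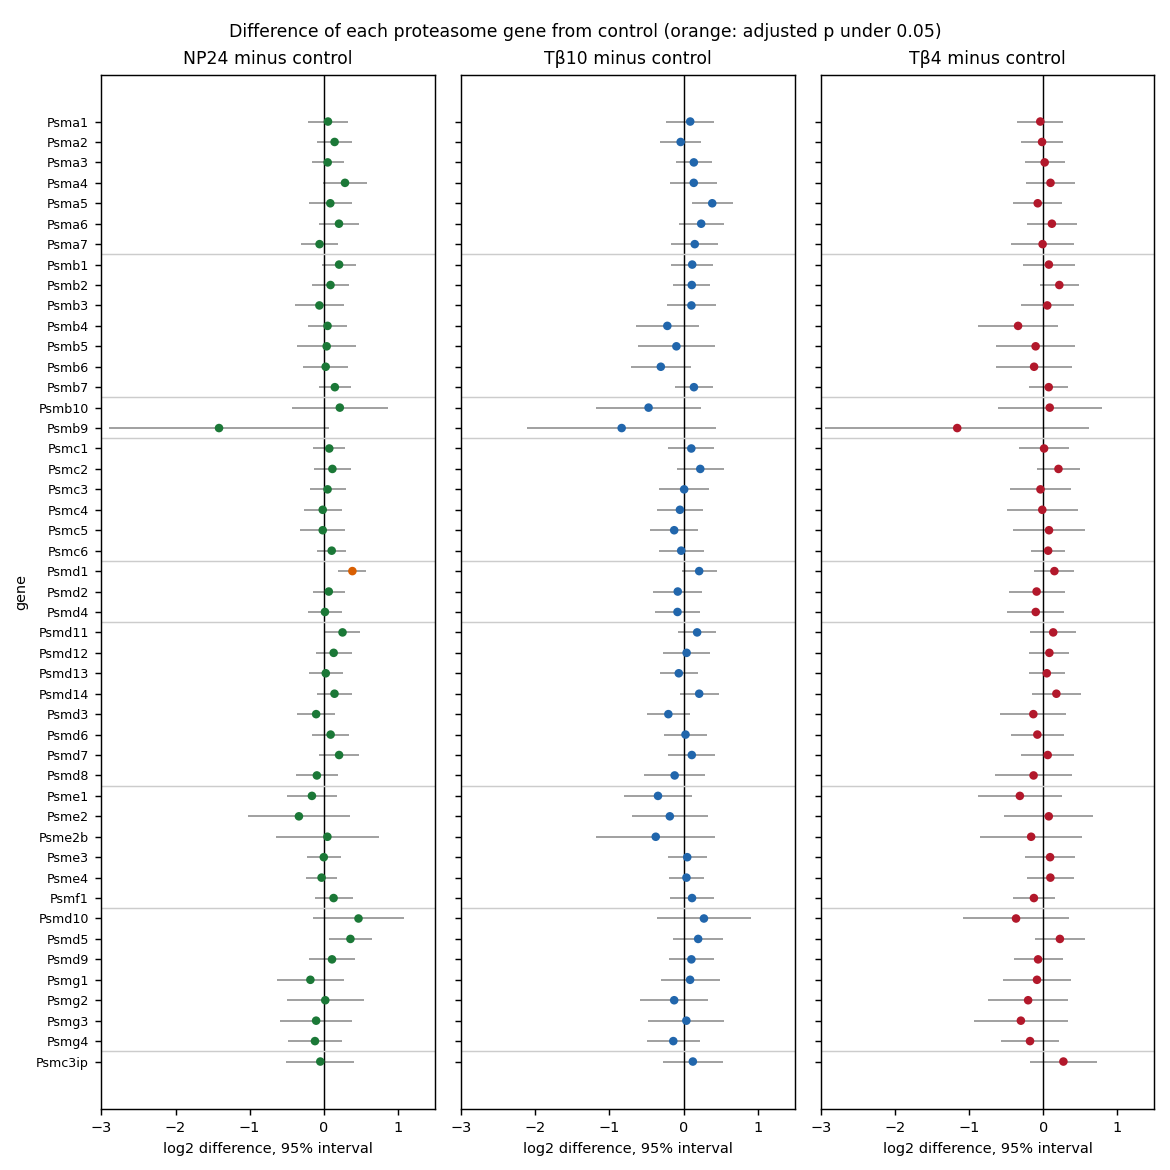
The log2 difference from control of each of 47 proteasome genes (points) with its 95% interval (lines), for NP24, Tβ10 and Tβ4, ordered by role with grey lines between roles; orange marks an adjusted p under 0.05. Psmd1 with NP24, at 0.39, is the single orange point, and the widest intervals belong to Psmb9.

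With Tβ10, 0 of the 47 genes passed (0.633% of 21960 genes tested did), and edgeR and DESeq2 also gave 0. One gene, 2.13% of the 47, had an unadjusted p under 0.05, against 11.2% of all genes. That gene was Psma5, a subunit of the alpha ring (ENSMUSG00000068749.9, GRCm38 chromosome 3, 108256926 to 108279974, plus strand). It stood at 443, 448, 380 and 465 normalized counts in controls and at 529, 628, 562 and 552 with Tβ10. No Tβ10 library was as low as a control, a pattern that 2.96% of all genes showed in the higher direction. The log2 difference was 0.39 ± 0.13 (95% interval 0.11 to 0.66, limma adjusted p = 0.235), and 0.42 without Tβ10 library 1 (limma adjusted p = 0.166). The median of the 47 genes was 0.04, with 28 positive, and it was 0.13 without Tβ10 library 1 and -0.03 without Tβ10 library 2.

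Other values with Tβ10 spread in both directions, and several depended on Tβ10 library 1. The core alpha genes had a median of 0.14 and 6 of 7 were positive, Psma6 among them at 0.24 ± 0.15; without library 1 the median was 0.25, and Psma6 gave 0.37. The core beta genes ranged from -0.31 for Psmb6 to 0.14 for Psmb7, which gave -0.09 and 0.17 without that library. In the base, Psmc2 gave 0.23 ± 0.15 and Psmd2 -0.08 ± 0.16, against 0.37 and 0.10 without it. In the lid, Psmd14 gave 0.21 ± 0.13 and Psmd3 -0.20 ± 0.14, against 0.12 and -0.12. Among the activators, Psme1, a subunit of the interferon-inducible PA28 activator, gave -0.34 ± 0.22, and -0.08 without library 1. Psme4 gave 0.04 ± 0.12 with it and -0.05 without. None of these passed the test in either case, and the values of Psmd2 and Psme4 turned sign. Tβ10 library 2 deviated upward in most proteasome genes, by a median of 0.36. Single-gene values without it are not given here.

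With Tβ4, 0 of 47 genes passed by limma, and 0 by edgeR or DESeq2; 0% of all 22205 genes did so by limma and 65 of 43019 by DESeq2. Without Tβ4 library 2, 354 of all 21665 genes passed by limma, 135 higher and 219 lower, and 0 of the 47. No proteasome gene had an unadjusted p under 0.05, against 7.06% of all genes. The median was -0.01, with 23 positive and 24 negative values. The smallest adjusted p among the genes was 0.801, for Psmb2 (0.22 ± 0.12, and 0.19 without Tβ4 library 2). The assembly factors had a median of -0.18, with 6 of 7 negative, Psmg3 at -0.30 ± 0.30 and Psmg4 at -0.18 ± 0.18, and Psmd5 at 0.22 ± 0.16. Without Tβ4 library 2 their median was -0.08, with Psmg3 at -0.09, Psmg4 at -0.11 and Psmd5 at 0.33. The median of the 47 genes was then 0.09.

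Between the peptides 0 proteasome genes passed in any of the 3 comparisons by limma, by edgeR or by DESeq2. Of all 24232 genes 2.09% passed for NP24 against Tβ4, 0% for NP24 against Tβ10 and 1.35% for Tβ4 against Tβ10. An unadjusted p under 0.05 was reached by 1, 2 and 1 of 47, where 3645, 591 and 3005 of all 24232 genes did so. Psma5 was lower with Tβ4 (429, 329, 470 and 431) than with Tβ10, without overlap, as were 2.57% of all genes. Its log2 difference was -0.46 ± 0.14 (95% interval -0.76 to -0.17, limma adjusted p = 0.118); NP24 less Tβ10 gave -0.30 ± 0.14 (adjusted p = 1). Without Tβ10 library 1 and Tβ4 library 2 these values were -0.39 and -0.33. Psmf1, which encodes the proteasome inhibitor PI31, was tightly grouped with Tβ4 at 540, 528, 526 and 537. With NP24 it stood at 624, 597, 676 and 656, and with Tβ10 at 596, 791, 603 and 554, all above the Tβ4 libraries. The log2 differences were 0.26 ± 0.13 for NP24 less Tβ4 (limma adjusted p = 0.352; groups apart in this direction in 2.89% of all genes) and -0.24 ± 0.13 for Tβ4 less Tβ10 (adjusted p = 0.477), and 0.25 and -0.26 without those 2 libraries. Psmd10 differed most in size between NP24 and Tβ4, by 0.84 ± 0.31 (adjusted p = 0.183), or 0.70 without Tβ4 library 2, with 52.4, 42.0, 82.8 and 52.1 normalized counts with Tβ4.

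**Figure D3:**
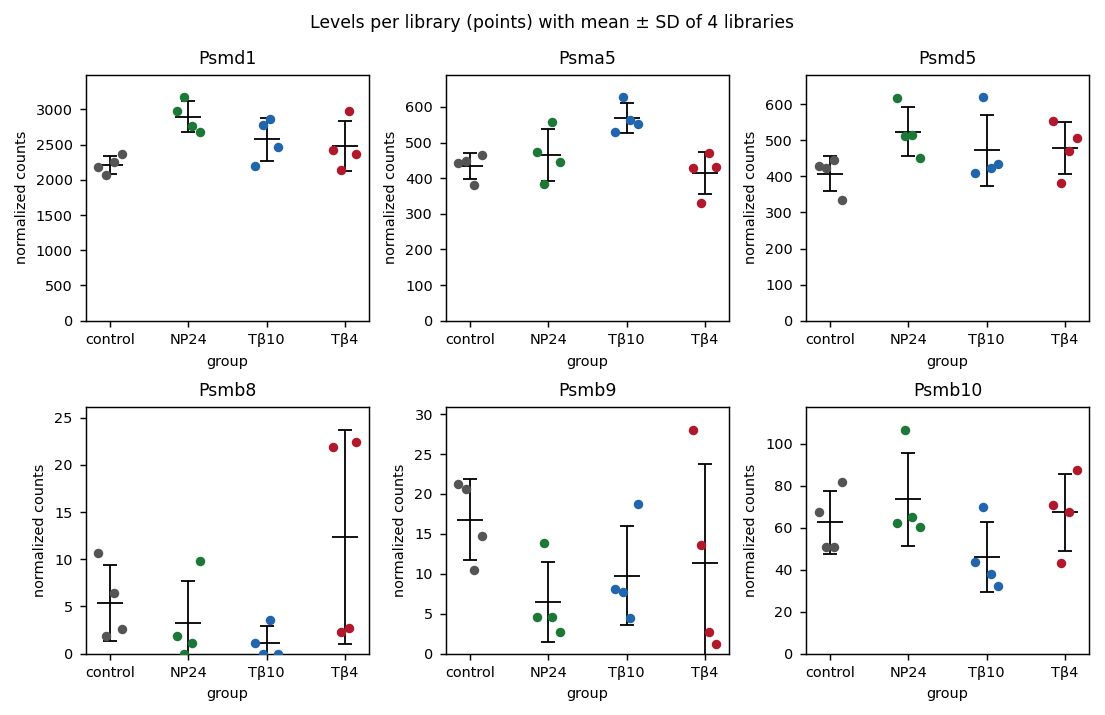
Normalized counts per library (points) with mean ± SD of 4 libraries (bars) for 6 genes in control, NP24, Tβ10 and Tβ4 cultures; the vertical axes start at 0 and lower bars that pass below it are cut. Psmd1 lies at 2674 to 3175 with NP24, above the controls, Psma5 at 529 to 628 with Tβ10, and the immune subunits Psmb8, Psmb9 and Psmb10 at most at 107.

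The offsets between core, base and lid were alike in the 4 groups. Because counts depend on gene length, the offset is used only to compare groups: it is the mean log2 level of the 14 core genes tested minus that of the 9 base genes, or of the 8 lid genes. Core less base was -0.65 ± 0.06 (SD, n = 4) for the control, -0.64 ± 0.08 for NP24, -0.60 ± 0.05 for Tβ10 and -0.68 ± 0.08 for Tβ4. Core less lid was -0.50 ± 0.08, -0.49 ± 0.10, -0.45 ± 0.09 and -0.52 ± 0.07. Base less lid was 0.15 ± 0.08, 0.16 ± 0.10, 0.15 ± 0.11 and 0.16 ± 0.15. Each peptide's mean lay within 1 control SD of the control mean, and no test was made of these offsets.

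The immune subunits were scarce in every group. Psmb8 had 0 to 19 reads per library, Psmb9 1 to 23 and Psmb10 19 to 100, where their counterparts Psmb5, Psmb6 and Psmb7 had 110 to 342, 313 to 1290 and 654 to 2143. Psmb8 and Psmb9 lie beside the antigen transporter genes, and Psmb9 shares 212 exonic bases with Tap1 on the opposite strand. Psmb10 took the largest share of its pair: per exonic length it made up 10.1 ± 1.73% of Psmb10 plus Psmb7 for the control, 10.6 ± 2.57% for NP24, 6.82 ± 1.48% for Tβ10 and 10.4 ± 3.03% for Tβ4. For Psmb9 in its pair with Psmb6 the share was 1.24 ± 0.426% (controls), 0.444 ± 0.289% (NP24), 0.947 ± 0.648% (Tβ10) and 0.979 ± 0.983% (Tβ4). Psmb8 made up 0.619 ± 0.415%, 0.43 ± 0.631%, 0.157 ± 0.19% and 1.4 ± 1.18% of its pair with Psmb5 in the same order.

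No difference of the immune subunits passed the test. Psmb9 stood at 21.3, 20.6, 10.5 and 14.8 normalized counts in controls and 4.6, 13.9, 4.6 and 2.7 with NP24. The ranges overlapped, and the log2 difference was -1.41 ± 0.72 (95% interval -2.90 to 0.08, limma adjusted p = 0.323). Every control held 10 normalized counts or more, against NP24 library 2 alone, at 13.9. Psmb9 thus passed the filter through the controls, which all 3 comparisons share. Such a pass favours negative values, so the sign is no evidence of a fall. With Tβ4, Psmb9 ran from 1.2 to 28.0. Psmb10 stood at 67.3, 50.6, 50.8 and 81.7 in controls and 43.4, 69.9, 37.8 and 32.4 with Tβ10, a log2 difference of -0.47 ± 0.34 (limma adjusted p = 0.643), and -0.47 without Tβ10 library 1. The 95% interval of Psmb9 reached from -2.11 to 0.44 with Tβ10 and from -2.94 to 0.62 with Tβ4. A fall of 1 on the log2 scale lies within all 3 of its intervals and was thus not excluded. Whether such a fall could be detected at these depths was not tested.

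Among genes that work with the proteasome, lists that were chosen with earlier results known gave few calls. Of 17 partners tested (receptors, deubiquitinases and shuttle factors), 0 passed with any peptide against control by limma, and 3, 1 and 0 had an unadjusted p under 0.05 with NP24, Tβ10 and Tβ4. Among all genes, 3710 of 21774 had such a limma p with NP24, 11.2% with Tβ10 and 7.06% with Tβ4. The maturation factor Pomp gave -0.05, 0.02 and -0.11 with NP24, Tβ10 and Tβ4, and the deubiquitinase Usp14 0.22, 0.24 and 0.13. Of 6 ubiquitin and E1 genes 0 passed by limma (unadjusted p under 0.05 in 0, 2 and 1), and of 16 autophagy genes 0 passed (2, 2 and 0). Medians of the ubiquitin and autophagy lists were -0.03 and 0.01 with NP24, -0.34 and 0.003 with Tβ10, and -0.11 and -0.002 with Tβ4.

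Of 14 regulators of proteasome genes and VCP pathway genes, 2 fell with NP24, 1 with Tβ10 and 0 with Tβ4, while 3 had an unadjusted p under 0.05 in each of these limma fits. The rates of all genes under that p are given with the partners above. Of all genes tested, 1.47% fell with NP24 and 0.533% with Tβ10. Nfe2l2, the gene of NRF2, was at 347 ± 48.0 normalized counts in the control, 197 ± 22.5 in NP24, 164 ± 23.6 in Tβ10 and 457 ± 63.7 in Tβ4 cultures (SD, n = 4 each). Both former groups lay below all controls, and the share of all genes that did so is not given here. The log2 differences were -0.81 ± 0.17 with NP24 (limma adjusted p = 0.0117) and -1.08 ± 0.18 with Tβ10 (adjusted p = 0.00638). Herpud1, a component of endoplasmic reticulum degradation, fell by 0.72 with NP24 (adjusted p = 0.0227), while Nfe2l1, at 1707 ± 92.9 in controls, gave -0.09, -0.23 and 0.04 with NP24, Tβ10 and Tβ4. With the mitochondrial rRNA share as a covariate, limma called 0 of all 21774 genes with NP24 and 0 of 21960 with Tβ10, so these calls were lost. That share was 9.32 to 14.2% in controls, 5.98 to 8.12% with NP24 and 4.76 to 9.53% with Tβ10. It nearly separates the groups, so this fit cannot tell it apart from the peptide. Marker sums of other cell types also differed between the groups. For fibroblast and meningeal markers they were 1608 to 2195 in the control, 1049 to 1236 in NP24, 1137 to 1402 in Tβ10 and 2285 to 4559 in Tβ4 cultures. Endothelial and pericyte sums were 364 to 577, 223 to 277, 173 to 254 and 662 to 1510 in that order, and those of microglia and macrophages 1817 to 2200, 1506 to 1628, 1361 to 1859 and 1737 to 2925. Among the tested markers, median log2 differences with NP24, Tβ10 and Tβ4 were -2.40, -1.91 and 1.40 for fibroblasts. They were -1.41, -1.34 and 0.72 for microglia and macrophages, and -1.32, -1.08 and 0.72 for endothelial cells and pericytes. The medians for microglia and macrophages cover 7, 9 and 10 of 11 markers in that order, so they are not medians of the same genes. The part of these cells in the Nfe2l2 values was not tested. The 5 genes with TGACNNNGC in their promoter had medians of 0.11 with NP24, -0.03 with Tβ10 and -0.07 with Tβ4, where members without it had 0.05, 0.05 and -0.01.

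Antigen presentation genes, to which the immune subunits belong by function, fell in 3 of 12 cases with NP24, while 0 of 12 passed with Tβ10 or with Tβ4. An unadjusted p under 0.05 by limma was reached by 4, 6 and 2 of them with NP24, Tβ10 and Tβ4, and the list medians were -0.35, -0.36 and 0.17. For all genes the rates under that p are those given with the partners. The list holds Psme1 and Psme2, which are proteasome genes themselves. B2m, the light chain of class I molecules, fell by 1.46 on the log2 scale with NP24 (limma adjusted p = 0.0226). H2-K1 fell by 1.63 (adjusted p = 0.0302) and H2-D1 by 0.78 (adjusted p = 0.0448). None of the 3 overlapped with controls, and the share of all genes lower without overlap is not given here. These 3 calls were lost with the mitochondrial covariate too, which cannot be told apart from the peptide. Markers of other cell types moved too with NP24, where 319 of all 21774 genes fell and 253 rose. Of 11 microglia and macrophage markers 7 were tested and 4 fell, and of 7 fibroblast markers 5 were tested and 5 fell, with Lum at 0 in all controls. Of 6 endothelial and pericyte markers 4 were tested and 2 fell; their sums in control and NP24 cultures are given above. In the oligodendrocyte lineage 2 of 7 fell (sum 6493 to 8696 with NP24 against 8676 to 10863 in controls), and of 5 cycling progenitor markers 2 fell (4860 to 6204 against 5792 to 6923). Of 7 astrocyte markers 1 rose (9119 to 9733 against 7044 to 8593). The part of these cells in the antigen presentation values was not tested.

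Tβ10 library 1 and Tβ4 library 2 were low in most proteasome genes. Against the mean of the other 3 libraries of its group, Tβ10 library 1 was lower in 42 of 47 genes, with a median log2 deviation of -0.32. Tβ4 library 2 was lower in 41 of 47, with a median of -0.50. Protein-coding genes as a whole had medians of -0.02 and -0.09. These libraries also had a high slope of counts on gene length, 1.15 and 1.21, where all 16 ran from 1.01 to 1.21. Deviations in the other direction were largest in Tβ10 library 2, lower in 6 of 47 genes with a median of 0.36, and Tβ4 library 3, lower in 9 of 47 with a median of 0.29. Each library is measured against the others of its group, so these deviations are not independent.

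The deviations followed the genomic span of the genes. Over 47 genes Spearman's rho between deviation and span was 0.516 in Tβ10 library 1 and 0.685 in Tβ4 library 2, and over all 15596 protein-coding genes tested it was 0.322 and 0.484; genes are not independent replicates, and these are descriptions. A relation with span was not limited to these libraries: rho over the 47 genes was 0.661 in NP24 library 4, whose length slope was 1.14, and -0.558 in NP24 library 2, -0.523 in Tβ4 library 1 and -0.470 in Tβ10 library 2. For 20 proteasome genes under 10 kb the median deviations were -0.50 and -0.82, for 21 of 10 to 50 kb -0.25 and -0.30, and for 6 of 50 kb and over -0.11 and 0.06. In protein-coding genes of these sizes the medians were -0.28 and -0.51, then -0.04 and -0.16, then 0.12 and 0.28. Spans depend on the annotation. That of Psmd9 (80.7 kb), 1 of the 6 longest, starts at 123169413, well before its RefSeq promoter stretch at 123228143. Short genes such as Psme1 (3.41 kb), at -1.07 and -1.20, and Psmb4 (2.87 kb), at -1.01 and -1.11, were among the lowest in both. Psmb9 (5.78 kb), which has few reads, was at 1.24 in Tβ4 library 2. The long genes Psmd14 (88.7 kb), at 0.36 and 0.68, and Psme4 (109 kb), at 0.37 and 0.56, were higher than in the other libraries. The deviations of these 2 libraries correlated across the 47 genes with rho 0.645, and across all protein-coding genes tested with rho 0.566.

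**Figure D4:**
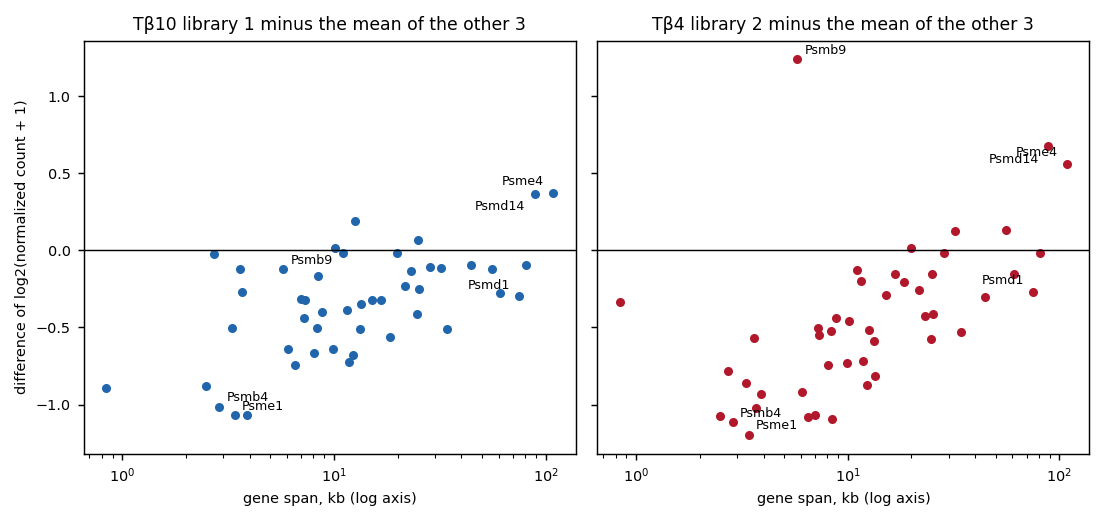
Each point is a proteasome gene, with its genomic span in kb on a log horizontal axis and its log2 deviation in Tβ10 library 1 (left) or Tβ4 library 2 (right) from the mean of the other 3 libraries of the group. Short genes such as Psmb4 lie near -1.0 and the long genes Psmd14 and Psme4 lie above 0.

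The same libraries stand out in the plot of deviations by library. The mean deviation of the 47 genes from their mean over 16 libraries was -0.26 in Tβ10 library 1 and -0.37 in Tβ4 library 2, and the highest was 0.28 in Tβ10 library 2. In the other 13 libraries it lay between -0.10 and 0.14. Without Tβ10 library 1 and Tβ4 library 2, 0 of 47 genes passed in each comparison that involves these groups, as with them. Of all genes, limma then called 252 of 21456 for Tβ10 against control (139 with them), 354 of 21665 for Tβ4 against control (0) and 1708 of 23824 for NP24 against Tβ4 (507). It called 691 for Tβ4 against Tβ10 (326) and 0 for NP24 against Tβ10 (0). Medians of the proteasome genes were then 0.13 for Tβ10 against control, 0.09 for Tβ4 against control and -0.02 for NP24 against Tβ4, so the sign of those for Tβ4 turned. A gain in calls was not particular to Tβ10 library 1. With Tβ10 library 2 left out in its place, limma called 315 of 21618 genes for Tβ10 against control.

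**Figure D5:**
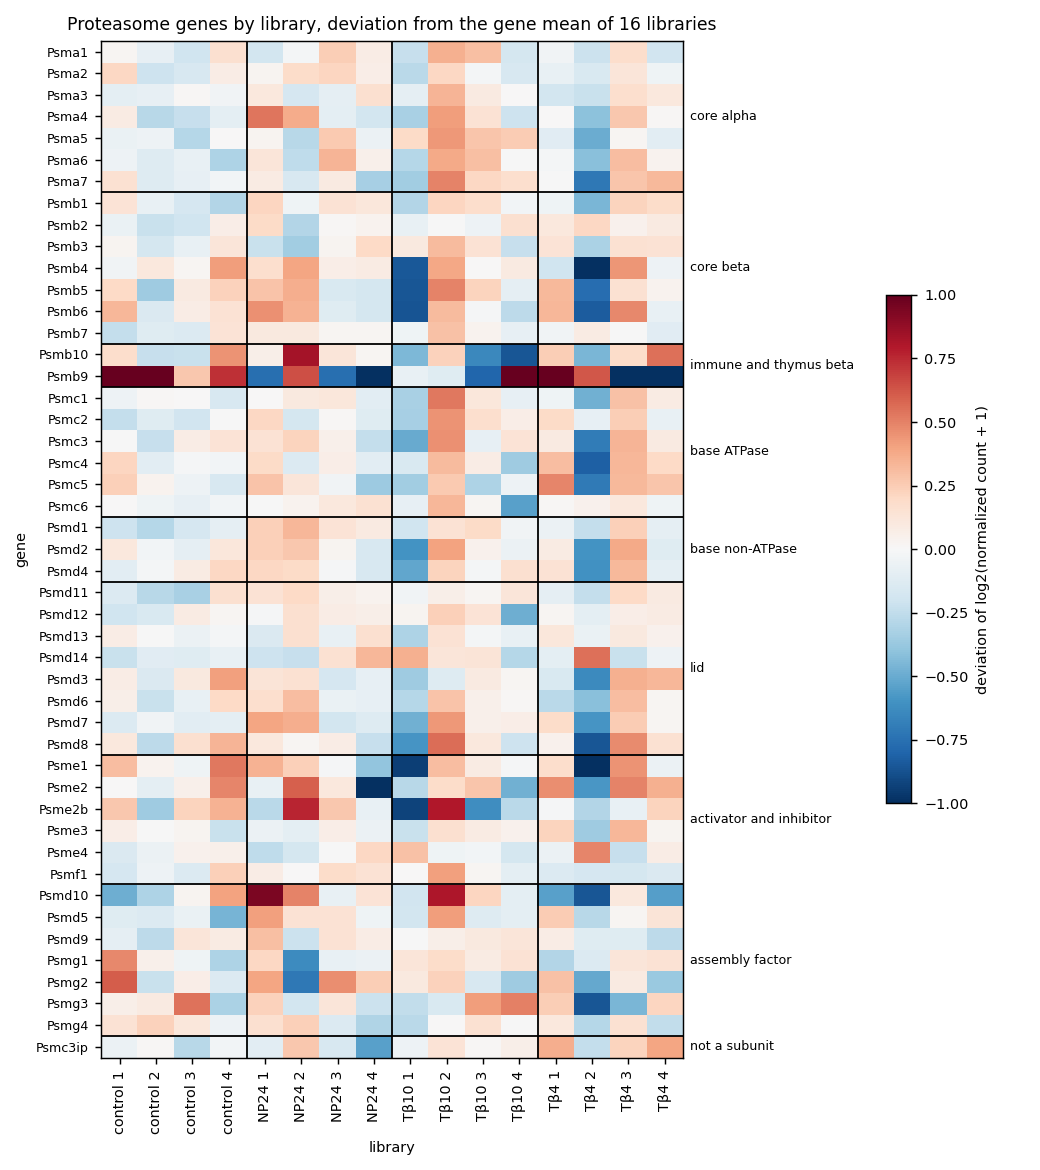
Deviation of log2(normalized count + 1) from the mean of 16 libraries for 47 proteasome genes (rows, by role) in each library (columns, by group), on a colour scale that saturates at 1 either way. Tβ10 library 1 and Tβ4 library 2 are low in most rows, with means of -0.26 and -0.37, while Psmd14 and Psme4 are high in both and Psmb9 is high in Tβ4 library 2.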

How the data were processed

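The deposited library values are a signal, read counts per gene scaled by the authors with a size factor for each library; the scaling was read from the values, and the submitters' processing notes name HISAT, HISAT2, featureCounts, DESeq2 and build GRCm38, without versions, strand setting or filters. The deposited tables also hold log2 fold changes, a score (the Wald statistic) and p-values of the authors, used here only where their table is named. All nonzero values were whole multiples of 1 read within 0.01 reads, so reads were recovered for edgeR 4.0.16 and DESeq2 1.42.0. The main test was limma 3.58.1 (limma-trend) after adding a pseudocount of 1 and taking log2. Genes needed 10 normalized counts or more in 4 libraries of the fit. P-values were adjusted by Benjamini-Hochberg over all genes tested, with a threshold of 0.05. Log2 differences are on this scale, which understates changes of low genes. Peptides were compared with control in fits of 8 libraries and with each other in 1 fit of 16. Exonic lengths and positions came from a GENCODE annotation of GRCm38, which covered 45596 of 45724 identifiers. A length counts the bases of all annotated exons of a gene, so it can exceed that of the transcript expressed. Without a stated strand setting, reads of overlapping genes cannot be told apart.

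The members, roles, lists and alternatives were chosen with earlier results of these data known. Named genes were those called, the immune subunits and their counterparts, the 2 of each role with the smallest p against control, and the highest and lowest of each role per length. Psmd4, Psmd12, Psme2, Psmb4 and Psmd9 were named after their values were seen. On simulated counts, limma found 10% of genes changed 1.25-fold, 64% at 1.5-fold and 98% at 2-fold for NP24 against control (24824 genes). For Tβ4 against Tβ10 (28595 genes) it found 0%, 20% and 76%. Changes of 1.25-fold were thus mostly missed in those counts. The changed genes, 50 for each fold, were drawn only from the middle range of proteasome gene levels. The rates are not split by level and do not cover genes at either extreme, such as Psmb9 or Psmd1. Whether they hold for the deposited libraries, some of which deviate in most proteasome genes, was not tested. Libraries within a group differed beyond counting error (smallest chi-square per degree of freedom 8.94).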

Additional observations from a re-analysis of the deposited data

Results flagged for a closer look

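In 5 of 136 groups of 4 libraries, 1 library lay far from the other 3, where chance gives about 1 in 20. Psma8, the testis alpha subunit, was at 62.2 normalized counts in Tβ4 library 1 against 1.14 to 7.59 in the others. Psmb10 was at 107 in NP24 library 2 against 60.5 to 64.9, and Psmb11 at 5.36 in Tβ10 library 1 against 0 in the others. Psmb3 was at 249.8 in Tβ4 library 2, 1 of the 2 libraries low in most proteasome genes, against 341 to 346. Psmd5 was at 620 in Tβ10 library 2 against 408 to 435.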

How the results depend on the processing

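With NP24 against control, the count of proteasome genes called was 1, and 0 with the spread of all 16 libraries and 0 with the mitochondrial rRNA share as a covariate, where 120 of 24232 and 0 of 21774 genes in all were called. It was 2 with the length slope as a covariate (Psmd1 and Psma4, the latter at 0.47, adjusted p = 0.0356; 677 genes in all), and 0 to 1 when 1 library was left out: 0 without control library 1 or 2 or NP24 library 1 or 3. With Tβ4 against Tβ10 the count was 0, and 1 (Psma5) with scaling to library size (-0.65, adjusted p = 0.0256) or with the length slope (-0.49, adjusted p = 0.0221); that scaling moved the median of all genes by -0.18, and by 0.13 for NP24 against Tβ4. The median of the proteasome genes was 0.23 for Tβ10 against control and 0.31 for NP24 against Tβ4 with the mitochondrial rRNA share as a covariate. The cause was not tested, and a covariate that largely separates the groups cannot be told apart from the peptide. In all settings run, 227 counts (within 1.5 times) and medians (within 1 SD of the libraries' means) kept their value and 11 moved. Of single-gene values, 3195 stayed on their side of the threshold and, where not called, within 1 SE; 125 moved by more, 6 were no longer called, 3 were newly called and 0 called values reversed. With the replicate block, the limma call for Psmd1 held at adjusted p = 0.0456 and no count moved. Of 24 same-number pairs, 1 had a correlation over 0.1 (range -0.30 to 0.11), and 4 libraries correlated best with their own number. Deviations of single libraries can mask a shared preparation, and the labels do not mention pairing. Whether replicate numbers pair libraries was therefore not decided. Leaving out Tβ10 library 1 and Tβ4 library 2 was chosen after seeing the data. Genes with under 100 reads, such as Psmb8 and Psmb9, are limited by depth.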
